A study of Mus musculus with 8 samples.

Results

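A set of 10 immediate early genes was followed across a mouse macrophage-like line given lipopolysaccharide (LPS), antibodies against CD36, or both. They are the early growth response genes Egr1, Egr2 and Egr3, the Krüppel-like factor genes Klf2, Klf4, Klf6 and Klf10, the proto-oncogene Myc, and the immediate early response genes Ier2 and Ier3. The genes were taken by symbol from a list, and 10 of 10 were found among the 10639 genes of the deposited table. The table gives FPKM, fragments per kilobase of transcript scaled to the library's total, which allows levels to be compared between genes.

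The cells were RAW264.7, a macrophage-like line transformed by Abelson leukaemia virus, of wild-type genotype in every group. They received LPS together with anti-CD36 antibodies for 12 h, LPS alone at 50 ng/mL for 12 h, anti-CD36 antibodies alone at a dilution of 1 in 100 for 12 h, or nothing, with 2 libraries per group. The labels of the combination give no doses, and no group received an antibody of another specificity. LPS comes from the outer membrane of Gram-negative bacteria and is sensed by TLR4. CD36 is a surface receptor that takes up oxidized LDL and fatty acids.

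Immediate early genes are those that a stimulus can switch on without new protein synthesis. MAP kinases and the serum response factor SRF drive many of them, NF-kB drives others, and their transcripts are usually induced within minutes and decay quickly, so a single sample at 12 h shows a late state and not the first wave. The EGR and KLF proteins bind GC-rich DNA through zinc fingers, and Myc binds E-boxes with its partner Max and drives growth and ribosome production. In macrophages Klf2 and Klf4 are known as brakes on inflammatory gene expression, and Klf4 also as a factor of alternative activation.

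Each library held 47900000 to 71700000 reads, recovered from the FPKM steps of single reads in short RNAs. Of 9 macrophage markers 8 were in the table, with a summed FPKM of 3956 to 4489 in the combination, 4229 to 4299 with LPS, 4774 to 5396 with anti-CD36 and 3625 to 4216 in untreated cells. None of the listed fibroblast, epithelial and endothelial markers was in the table. The anti-CD36 replicates lay farthest apart, with an SD of the replicate difference over genes of 0.45 on the log2(FPKM + 1) scale, against 0.19 in the combination, 0.14 with LPS and 0.22 in untreated cells. Mitochondrial genes held 15.8% of summed FPKM in anti-CD36 replicate 1 and 3.28% to 6.62% in the other libraries.

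Upstream sequence is shown for the 5 of 10 genes that RefSeq's promoter table (GRCm38.p6) holds, since they cover genes that fell with LPS (Klf2, Klf4) and genes that rose (Klf6, Egr2, Ier3). Each run covers bases 250 to 31 before the RefSeq start, 5′ to 3′ on the gene's strand. They are Klf2 at chr8:72318812-72319031 (plus strand), Klf4 at chr4:55532506-55532725 (minus), Klf6 at chr13:5861239-5861458 (plus), Egr2 at chr10:67537619-67537838 (plus) and Ier3 at chr17:35821463-35821682 (plus). Capitals mark matches, on either strand, to the CArG box of SRF, the MEF2 site, GGAATTTCC (a kappaB sequence bound by NF-kB), CACGTG (the E-box of Myc and Max) and GCGNGGGCG (an EGR sequence).
Klf2: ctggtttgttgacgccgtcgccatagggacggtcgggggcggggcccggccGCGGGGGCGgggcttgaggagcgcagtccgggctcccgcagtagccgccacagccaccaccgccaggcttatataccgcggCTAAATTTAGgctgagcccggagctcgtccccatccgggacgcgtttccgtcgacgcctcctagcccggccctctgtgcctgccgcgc
Klf4: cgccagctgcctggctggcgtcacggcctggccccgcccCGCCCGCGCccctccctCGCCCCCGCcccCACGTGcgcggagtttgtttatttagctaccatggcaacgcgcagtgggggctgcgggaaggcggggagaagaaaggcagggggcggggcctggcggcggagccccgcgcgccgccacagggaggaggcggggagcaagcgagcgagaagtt
Klf6: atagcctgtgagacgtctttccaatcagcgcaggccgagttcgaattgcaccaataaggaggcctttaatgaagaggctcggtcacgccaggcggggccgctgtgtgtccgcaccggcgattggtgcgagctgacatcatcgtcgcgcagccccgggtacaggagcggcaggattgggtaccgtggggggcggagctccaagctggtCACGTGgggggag
Egr2: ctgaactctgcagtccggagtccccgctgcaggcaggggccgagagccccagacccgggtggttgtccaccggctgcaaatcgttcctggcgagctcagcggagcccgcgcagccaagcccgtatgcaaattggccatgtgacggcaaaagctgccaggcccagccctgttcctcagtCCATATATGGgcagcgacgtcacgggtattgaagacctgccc
Ier3: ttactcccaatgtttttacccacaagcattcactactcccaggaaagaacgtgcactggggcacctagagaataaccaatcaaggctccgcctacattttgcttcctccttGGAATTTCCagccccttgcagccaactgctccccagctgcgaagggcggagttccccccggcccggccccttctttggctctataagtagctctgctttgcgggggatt

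The Egr2 window held 1 CArG match, found in 1.3% of 32817 windows of the same length, and Egr2 has 5 windows in the table, of which the one at its principal transcript is shown. The Ier3 window held the kappaB match, found in 0.259% of windows. Klf2 held a MEF2 match (2.6% of windows) and 1 EGR match (3.74%), and Klf4 held 2 EGR matches. Klf4 and Klf6 each held 1 E-box (5.01%). The GC box GGGCGG, a KLF and SP sequence that can overlap the EGR matches and is not capitalised, was found in 28.5% of windows and in each of the 5 shown except that of Egr2. These matches describe the letters in these windows and not bound sites.

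Differences were tested with limma on log2(FPKM + 1), a scale that understates the change of low genes, in 1 fit over the 10289 genes that reached 1 FPKM in 2 or more libraries. Calls were made where the p, adjusted over all of these genes by Benjamini-Hochberg, was below 0.05. All 10 members passed the filter, but Klf4 passed through the 4 libraries without LPS and Myc through the 4 with LPS. Egr2 passed through both LPS libraries and combination replicate 1, and Egr3 through the 6 libraries outside the combination. These genes therefore entered the test through the libraries where they were higher. Without any filter the counts of called members given here were the same in each comparison. An exact permutation test of 2 libraries against 2 cannot go below p = 0.333, and the labels do not say whether replicates came from separate cultures. The p-values therefore reflect how far these libraries lay apart, possibly for technical reasons. In bulk samples, fewer cells that express a gene and less RNA per cell cannot be told apart.

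**Figure D1:**
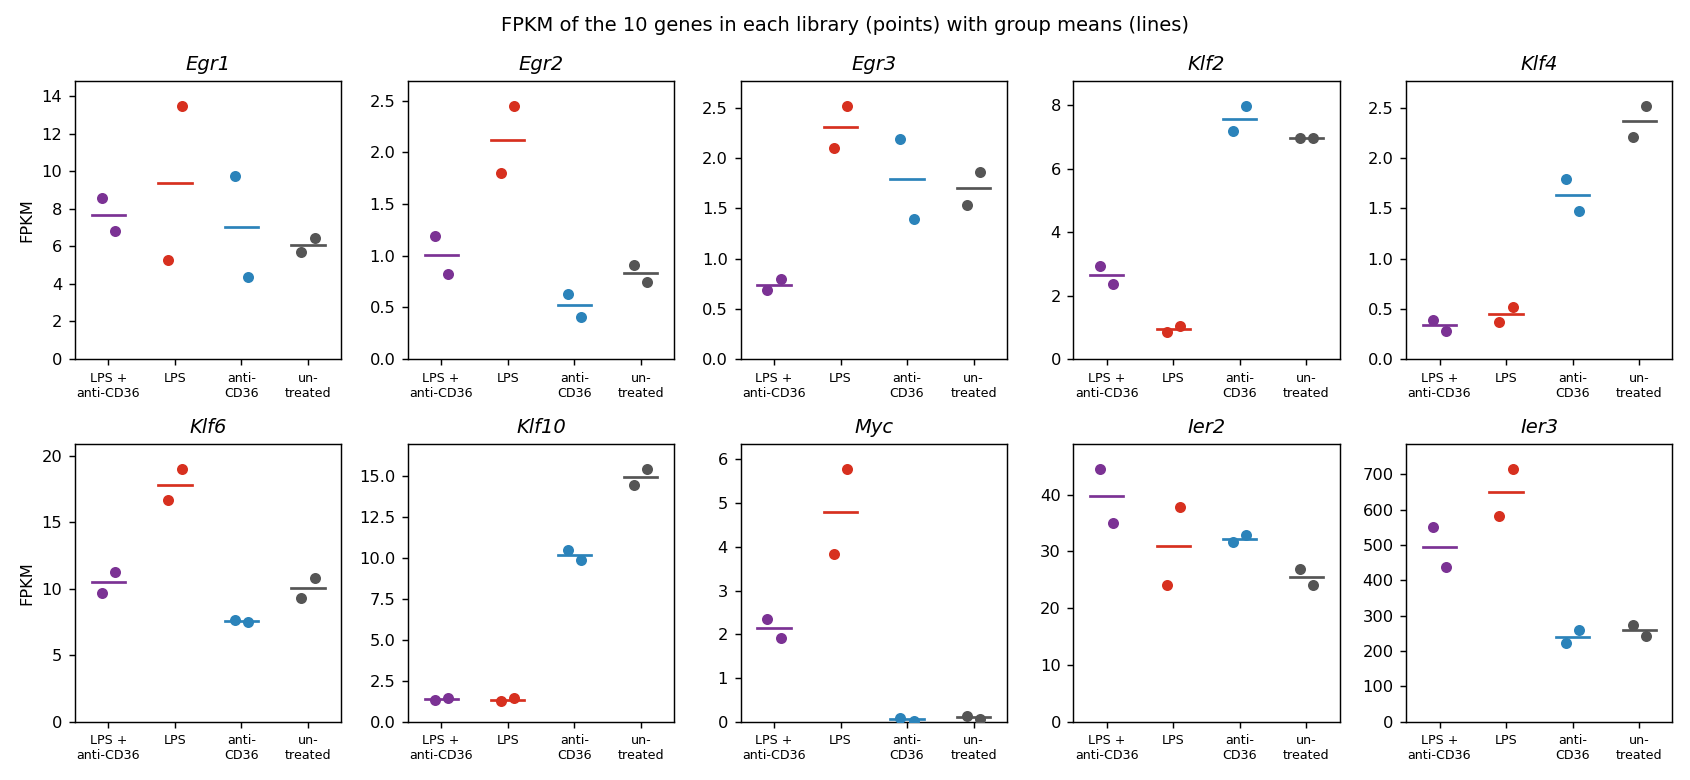
FPKM of the 10 genes (vertical axes, each from 0) in each library of the 4 groups (horizontal axis), with points for the 2 libraries and a line at their mean. Klf10 and Klf4 sit low in both LPS-treated groups, Myc is close to 0 without LPS, and Klf2 and Egr3 differ between the combination and LPS alone.

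LPS against untreated cells asks how the genes stand after 12 h of endotoxin. Klf10, Klf2 and Klf4 fell, and Myc, Ier3, Klf6 and Egr2 rose, so 7 of 10 were called where 54.6% of all tested genes were. Replicate ranges did not overlap in 8 of 10, and in 85.1% of all genes. The 4 rises compare with 17.0% of all genes called higher, and the 3 falls with 37.5% called lower. The median log2 difference of the 10 genes was 0.36, and that of all tested genes -0.19.

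Klf10 (GRCm38 chr15:38291463-38300706, minus strand), a TGF-beta-inducible repressor, had the largest difference on the log2(FPKM + 1) scale, while the ratio of means was larger for Myc. Its FPKM was 1.24 and 1.45 in LPS cells and 14.5 and 15.4 in untreated cells, 11.1-fold lower (log2 difference -2.77 ± 0.10 SE, limma adjusted p = 2.26e-06). Both LPS libraries were far below both untreated ones. Klf2 was at 0.855 and 1.05 with LPS and at 6.97 and 6.98 in untreated cells, 7.34-fold lower (-2.03 ± 0.12, limma adjusted p = 1.66e-05). Klf4 stood at 0.368 and 0.521 with LPS and at 2.22 and 2.52 in untreated cells (-1.22 ± 0.11, limma adjusted p = 0.000118). These 3 KLF genes moved down while the fourth, Klf6, a widely expressed factor induced by injury, moved up. Klf6 stood at 16.7 and 19.0 FPKM in LPS cells and 9.29 and 10.8 in untreated cells (0.77 ± 0.13, limma adjusted p = 0.00165).

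Myc (GRCm38 chr15:61985391-61990374, plus strand) was nearly silent without LPS. Its level was 3.84 and 5.78 FPKM in LPS cells, against 0.132 and 0.0719 in untreated cells, the last values resting on about 20 and 14 reads, and the ratio of means was 47.1 (2.38 ± 0.16, limma adjusted p = 3.31e-05). The replicates of each group were far from those of the other, although the LPS pair itself spread widely. Ier3, an NF-kB target that modulates cell survival, was by far the most abundant of the 10 in every group. Its level was 583 and 715 FPKM in LPS cells and 275 and 243 in untreated cells (1.32 ± 0.19, limma adjusted p = 0.000903).

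Of the EGR genes, only Egr2 was called. It stood at 1.80 and 2.44 FPKM in LPS cells and at 0.909 and 0.747 in untreated cells (0.77 ± 0.15, limma adjusted p = 0.00369). Egr3 (GRCm38 chr14:70077203-70082614, plus strand) was at 2.10 and 2.51 with LPS and at 1.54 and 1.86 in untreated cells, groups that did not overlap but were not called (0.29 ± 0.15, limma adjusted p = 0.142). That value became a call with size factors or quantile normalization and without either anti-CD36 library. Egr1, the best known SRF target of the family, had 5.28 and 13.5 FPKM in LPS cells and 5.70 and 6.45 in untreated cells, so that the LPS pair enclosed the untreated one (0.43 ± 0.42, limma adjusted p = 0.411). Ier2 (GRCm38 chr8:84661331-84662852, minus strand), which encodes a nuclear protein, overlapped likewise, at 24.1 and 37.9 with LPS and 26.9 and 24.1 in untreated cells (0.24 ± 0.21, limma adjusted p = 0.365).

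All 10 genes were higher in LPS replicate 2 than in replicate 1, where 65.9% of all tested genes were, with a median difference of 0.24 on the log2 scale against 0.05 for all genes. The corresponding counts were 3 of 10 in the combination, 3 of 10 with anti-CD36 and 6 of 10 in untreated cells. With each library left out in turn, the 7 calls were kept in each of the 8 fits, while Egr1 turned to -0.17 and Ier2 to -0.08 without LPS replicate 2.

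Some markers of other cell types differed with LPS, in both directions. Of 3 dendritic cell markers 2 were in the table, with a summed FPKM of 3.62 to 3.69 in the combination, 2.12 to 2.41 with LPS, 0.453 to 0.461 with anti-CD36 and 0.402 to 0.476 in untreated cells. Lck, the 1 T and NK cell marker of 4 in the table, was at 4.15 in both combination libraries, 4.21 to 4.32 with LPS, 1.72 to 1.87 with anti-CD36 and 1.89 to 2.00 in untreated cells. Csf3r, the 1 granulocyte marker of 4 in the table, was at 3.475 to 3.997 in the combination, 2.97 to 3.30 with LPS, 3.39 to 4.92 with anti-CD36 and 4.01 to 4.33 in untreated cells. The 2 B cell markers of 5 in the table summed to 79.06 to 83.03 in the combination, 76.3 to 78.6 with LPS, 68.0 to 110.1 with anti-CD36 and 84.7 to 87.5 in untreated cells. The samples are of a single cell line, so these values are levels of the marker genes and do not measure shares of cell types. Their relation to the differences of the 10 genes was not tested.

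The LPS difference was measured again in antibody-treated cells, from libraries that the first comparison did not use. There 7 of 10 genes were called, 3 higher and 4 lower, where 47.1% of all tested genes were called, 15.4% higher and 31.7% lower. Replicate ranges did not overlap in 9 of 10, and in 70.4% of all genes. Klf10 was 7.38-fold lower, at 1.34 and 1.43 FPKM in the combination and 10.5 and 9.89 with anti-CD36 (-2.23 ± 0.10, limma adjusted p = 5.85e-06). Klf2 was lower as well, at 2.94 and 2.37 in the combination and 7.19 and 7.97 with anti-CD36 (-1.23 ± 0.12), and so was Klf4, at 0.386 and 0.282 in the combination and 1.79 and 1.47 with anti-CD36 (-0.98 ± 0.11). In these 3 genes the groups were far apart.

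Myc was at 2.36 and 1.91 FPKM in the combination and at 0.0768 and 0.0257 with anti-CD36, the last values from about 10 and 4 reads, a ratio of means of 41.7 (1.57 ± 0.16, limma adjusted p = 0.000234). Ier3 was at 551 and 438 in the combination and 222 and 260 with anti-CD36 (1.03 ± 0.19, limma adjusted p = 0.00352). Klf6 was at 9.72 and 11.3 in the combination and at 7.62 and 7.51 with anti-CD36 (0.42 ± 0.13, limma adjusted p = 0.0275). The Klf6 call was lost without combination replicate 2, at 0.32, in a fit on only these 2 groups, and with mitochondrial genes left out, at 0.23.

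Of the EGR genes, only Egr3 was called here. It fell, at 0.687 and 0.793 FPKM in the combination and 2.19 and 1.39 with anti-CD36 (-0.67 ± 0.15, limma adjusted p = 0.0095), a call lost without combination replicate 1, at -0.62. Egr2 was at 1.19 and 0.820 in the combination and 0.633 and 0.405 with anti-CD36 and missed the threshold (0.40 ± 0.15, limma adjusted p = 0.0594). Egr1 was at 8.55 and 6.81 in the combination and 9.72 and 4.38 with anti-CD36, again with 1 pair inside the other (0.19 ± 0.42, limma adjusted p = 0.741). Ier2 was at 44.5 and 35.0 in the combination and 31.7 and 32.8 with anti-CD36, and was not called (0.28 ± 0.21, limma adjusted p = 0.303).

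**Figure D2:**
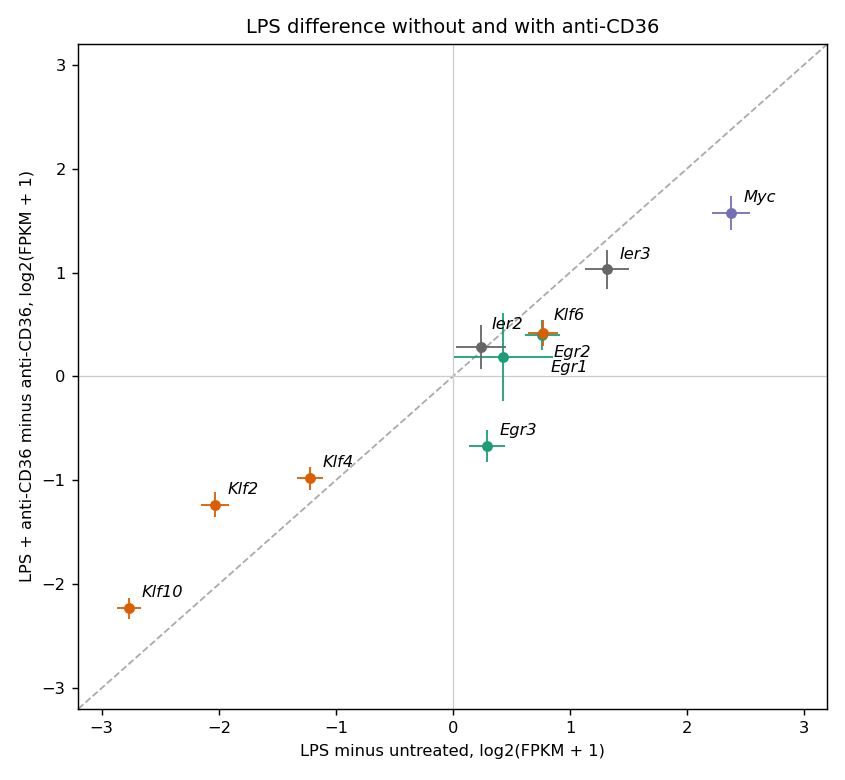
LPS difference of each gene on the log2(FPKM + 1) scale in cells without antibodies (horizontal axis, LPS minus untreated) and with them (vertical axis, combination minus anti-CD36), with bars of 1 SE and a dashed line where the values are equal. Klf10, Klf2 and Klf4 lie low on both axes, Myc and Ier3 high on both, and Egr3 is the gene at 0.29 without and -0.67 with the antibodies.

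The antibodies were next examined in cells that all received LPS, as the combination against LPS alone. Klf2 was higher and Egr3, Myc and Klf6 were lower, 4 of 10 genes where 1.78% of all tested genes were called. In each direction these are 1 gene higher, where 0.36% of all genes were, and 3 lower, where 1.42% were. The median difference of the 10 genes was -0.27, and that of all tested genes -0.02.

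Klf2 had 2.94 and 2.37 FPKM in the combination and 0.855 and 1.05 with LPS, a ratio of means of 2.79 (0.90 ± 0.12, limma adjusted p = 0.0214). Its 4 groups followed in the order anti-CD36, untreated, combination and LPS, and no neighbours in this order overlapped. Klf2 thus stood between LPS-treated and untreated cells in the combination. Its difference from LPS and the LPS difference above share the LPS libraries.

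Egr3 had 0.687 and 0.793 FPKM in the combination and 2.10 and 2.51 with LPS, 3.12-fold lower (-0.92 ± 0.15, limma adjusted p = 0.039). The combination was also below both untreated libraries, so its level of Egr3 was the lowest of the 4 groups, while the other 3 groups overlapped in order. Myc had 2.36 and 1.91 in the combination and 3.84 and 5.78 with LPS, 2.25-fold lower (-0.87 ± 0.16, limma adjusted p = 0.0489). It remained far above untreated cells in both groups. Klf6 had 9.72 and 11.3 in the combination and 16.7 and 19.0 with LPS (-0.71 ± 0.13, limma adjusted p = 0.0442), and its combination libraries overlapped the untreated ones.

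The other 6 genes were not called. Egr2 was at 1.19 and 0.820 FPKM in the combination and 1.80 and 2.44 with LPS (-0.64 ± 0.15, limma adjusted p = 0.0785), and Ier3 at 551 and 438 in the combination and 583 and 715 with LPS (-0.39 ± 0.19, limma adjusted p = 0.309). In both genes the groups did not overlap, as was the case for 64.1% of all tested genes. Klf10 (0.03 ± 0.10) and Klf4 (-0.11 ± 0.11) overlapped at their low levels, as did Egr1 (-0.14 ± 0.42) and Ier2 (0.37 ± 0.21).

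The p-values of these 4 calls use the spread that all 8 libraries share. A fit on only the combination and LPS libraries called 2384 of 9772 tested genes, against 183 of 10289 here. None of the 10 genes was called without any 1 of the untreated, LPS or combination libraries. Without both anti-CD36 libraries 5 were called, the same 4 and Egr2, where 1453 of 10208 tested genes were. The differences themselves stayed at 0.79 to 1.02 for Klf2, -1.02 to -0.84 for Egr3, -1.12 to -0.63 for Myc and -0.81 to -0.62 for Klf6 over the 8 fits with 1 library left out.

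Differences in this comparison followed gene length, with a Spearman rho of -0.476 across 10043 genes, which are not independent replicates. Klf2 has a union exon length of 1847 bases in GENCODE M21, Myc 2717, Klf6 4391 and Egr3 4406. With each library's length trend removed, an alternative chosen after seeing the data, the same 4 genes were called, Klf2 at 0.75, Myc at -0.98, Klf6 at -0.73 and Egr3 at -0.94. With mitochondrial genes left out, Klf2 and Myc were called, and Egr3 stood at -0.95 and Klf6 at -0.79.

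**Figure D3:**
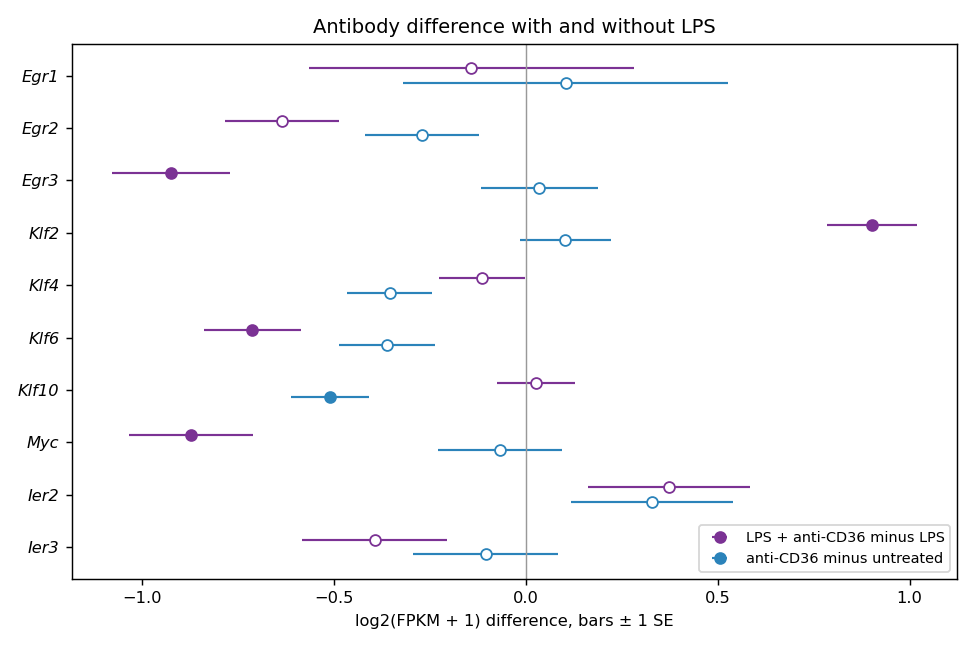
Antibody difference of each gene (horizontal axis, log2(FPKM + 1), bars of 1 SE) in LPS-treated cells (purple) and in cells without LPS (blue), with filled points for called genes. With LPS, Klf2 lies at 0.90 and Egr3, Myc and Klf6 between -0.92 and -0.71, and without LPS only Klf10 is filled, at -0.51.

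Anti-CD36 antibodies alone changed 1 of the 10 genes by the test, where 13.7% of all tested genes were called, 3.04% higher and 10.6% lower. Klf10 fell, at 10.5 and 9.89 FPKM with anti-CD36 and 14.5 and 15.4 in untreated cells (-0.51 ± 0.10, limma adjusted p = 0.0233). The call was lost without any 1 of the untreated, LPS or combination libraries, with the difference at -0.55 to -0.47 over the 8 fits, and in a fit on only these 2 groups. With size factors the difference was -0.41 and was not called.

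Klf4 was at 1.79 and 1.47 FPKM with anti-CD36 and 2.22 and 2.52 in untreated cells (-0.35 ± 0.11, limma adjusted p = 0.0738), and Klf6 at 7.62 and 7.51 with anti-CD36 and 9.29 and 10.8 in untreated cells (-0.36 ± 0.13, limma adjusted p = 0.0966). In both genes the anti-CD36 libraries were the lower ones and the groups did not overlap, as in 52.6% of all tested genes. Klf2 was at 7.19 and 7.97 with anti-CD36 and 6.97 and 6.98 in untreated cells (0.10 ± 0.12), a direction that turned with the length trend removed, and Ier2 at 31.7 and 32.8 with anti-CD36 and 26.9 and 24.1 in untreated cells (0.33 ± 0.21). Myc, Ier3, Egr1, Egr2 and Egr3 differed by -0.27 to 0.10 and were not called.

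Whether LPS acted differently in cells given the antibodies was tested as an interaction, the LPS difference with antibodies minus that without. By limma with Benjamini-Hochberg adjustment, 0 of 10 genes passed, where 0.00972% of all tested genes did, and 4 of 10 had an unadjusted p under 0.05, where 13.6% of all did. These 4 were Egr3 (-0.96 ± 0.22, limma adjusted p = 0.257), Klf2 (0.80 ± 0.17, limma adjusted p = 0.226), Myc (-0.80 ± 0.23, limma adjusted p = 0.277) and Klf10 (0.54 ± 0.14, limma adjusted p = 0.272). With 1 or the other anti-CD36 library left out, the interaction stood at 0.73 and 0.86 for Klf2 and at -0.75 and -1.17 for Egr3. In those fits the lone anti-CD36 library is assumed to vary like the other groups.

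Within the KLF family, both the total and the makeup differed between groups. The 10 KLF genes in the table summed to 39.5 and 39.7 FPKM in the combination, 50.9 and 55.3 with LPS, 59.0 and 62.6 with anti-CD36 and 82.6 and 88.0 in untreated cells, groups that did not overlap. Klf6 made up 26.5% of the KLF total in the combination, 33.6% with LPS, 12.4% with anti-CD36 and 11.8% in untreated cells. Klf10 made up 3.49% in the combination, 2.53% with LPS, 16.8% with anti-CD36 and 17.5% in untreated cells. Klf16 was the most abundant KLF gene without LPS, and Klf6 was with it. Of the other KLF and SP genes 10 of 17 were tested, and with LPS 5 fell and none rose, where 37.5% of all tested genes were lower and 17.0% higher (median -0.55, all genes -0.19), among them Klf11, a close relative of Klf10, at -1.27 and Klf13 at -1.03, with Sp2 at -1.28. In antibody-treated cells LPS lowered 5 of the 10 as well, where 31.7% of all genes were lower (median -0.45, all genes -0.15).

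The antibodies alone lowered 4 of these 10 KLF and SP genes, where 10.6% of all genes were lower, among them Sp1 (-0.74), Klf7 (-0.63) and Klf13 (-0.61). For the antibodies alone, 0 of all tested genes were called by limma without either untreated library or in a fit restricted to those 2 groups, so these calls and those of the lists that follow were lost there. Differences for the antibodies alone also followed gene length, with a Spearman rho of -0.445 across 10043 genes. The part of length in these calls and in those of the later lists was not tested. In LPS-treated cells none of these 10 KLF and SP genes was called (median -0.32, all genes -0.02). The largest values there were Klf7 (-0.63 ± 0.13, limma adjusted p = 0.0611), Sp1 (-0.49) and Sp4 (-0.45). Sp1 is a GC-box factor expressed in most cells.

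**Figure D4:**
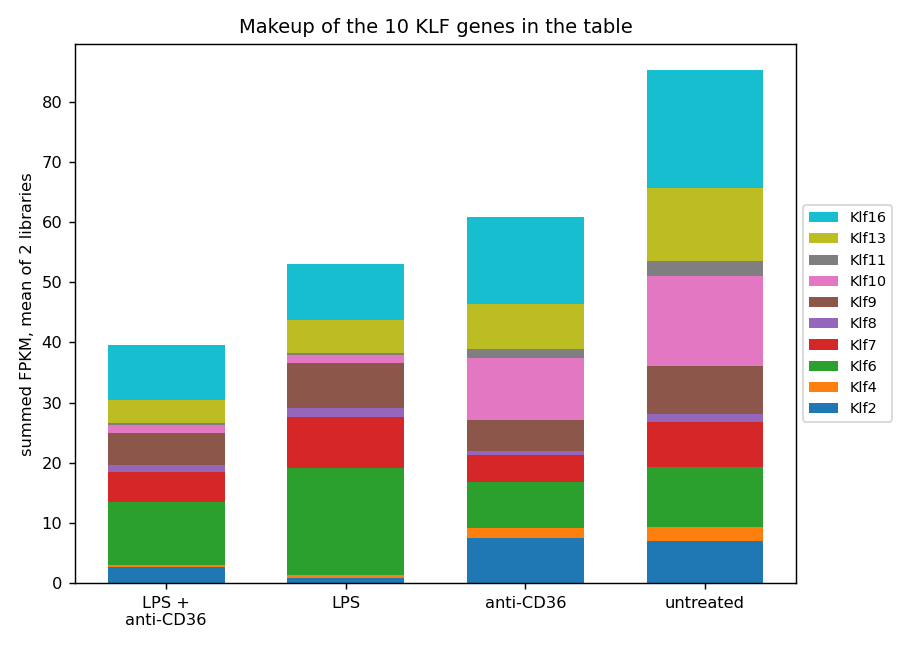
Summed FPKM of the 10 KLF genes in the table (vertical axis, means of 2 libraries) in the 4 groups, stacked by gene. The total is lowest in the combination and highest in untreated cells, the Klf10 segment is thin in both LPS-treated groups, and the Klf6 segment is tallest with LPS alone.

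Myc and its relative Mycn moved in opposite directions with LPS. Mycn was the more abundant in every group, at 77.6 and 67.8 FPKM in the combination, 77.4 and 85.0 with LPS, 345 and 303 with anti-CD36 and 407 and 390 in untreated cells. It was 4.90-fold lower with LPS than in untreated cells (-2.28 ± 0.14, limma adjusted p = 2.02e-05) and was not called for the combination against LPS (-0.16 ± 0.14). Myc and Mycn together summed to 79.9 and 69.7 in the combination, 81.3 and 90.8 with LPS, 345 and 303 with anti-CD36 and 407 and 390 in untreated cells, so Myc was a small part of the sum in each library.

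Of the 11 tested genes listed as partners and antagonists of Myc, 1 rose and 5 fell with LPS, where 17.0% of all genes rose and 37.5% fell (median -0.33, all genes -0.19). The list includes Mycn, which is counted among the falls here and in antibody-treated cells. The antagonists Mnt (-1.60) and Mxd3 (-1.14) fell as well. In antibody-treated cells LPS raised 3 and lowered 5, where 15.4% of all genes rose and 31.7% fell. Mnt was at -1.62 there and Mxi1, another antagonist, at -1.08. None of the 11 was called in the combination against LPS, where the largest values were Mga (-0.56), Mnt (-0.52) and Mlxip (-0.35). With anti-CD36 alone 2 fell, where 10.6% of all genes did, Mlxip (-0.73) and Mxd1 (-0.41).

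Known Myc targets of ribosome making and growth were called in both directions. Of 25 tested, 6 rose and 6 fell with LPS, where 17.0% of all genes rose and 37.5% fell (median -0.06, all genes -0.19). Odc1, ornithine decarboxylase of polyamine synthesis, was at 2260 and 2207 FPKM in LPS cells and 237 and 223 in untreated cells, 9.71-fold higher (3.27 ± 0.16, limma adjusted p = 9.26e-06), while Tfap4 (-1.79) and Cad, the first enzyme complex of pyrimidine synthesis (-1.45), fell. In antibody-treated cells LPS raised 4 and lowered 4, where 15.4% of all genes rose and 31.7% fell. Odc1 was at 2.98 there, Tfap4 at -1.50 and Rrp9 at 0.98. None of the 25 was called in the combination against LPS (median 0.13, all genes -0.02), where the largest differences were Ldha (-0.50), Ppan (0.44) and Bop1 (0.43) and where Odc1 stood at 2584 and 2415 FPKM in the combination and 2260 and 2207 with LPS. With anti-CD36 alone, where 3.04% of all genes rose and 10.6% fell, 4 rose, among them the nucleolar proteins Npm1 (0.93) and Ncl (0.75), and 2 fell, among them Cad (-0.92).

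**Figure D5:**
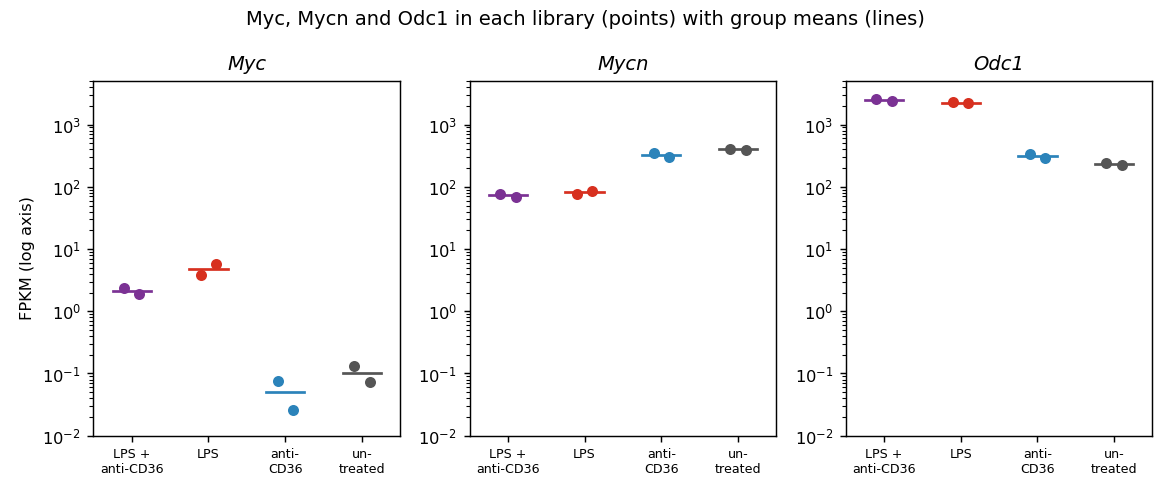
FPKM of Myc, Mycn and Odc1 on a log axis (vertical) in each library of the 4 groups, with points for libraries and lines at the means. Myc and Odc1 are higher in both LPS-treated groups than in their counterparts without LPS, and Mycn is lower.

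The EGR genes are restrained by the corepressors Nab1 and Nab2, of which Nab2 is itself an EGR target. Nab2 was at 8.24 and 8.65 FPKM in LPS cells and 16.6 and 15.9 in untreated cells (-0.87 ± 0.10, limma adjusted p = 0.000391), and Nab1 was not called (-0.34 ± 0.17). In antibody-treated cells LPS lowered both, with Nab2 at -0.69 and Nab1 at -0.60. Neither was called in the antibody comparisons. Egr1 was the most abundant EGR gene in each group.

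Of the other IER genes, Ier5 was at 33.4 and 31.1 FPKM in LPS cells and 12.4 and 11.7 in untreated cells (1.35 ± 0.23, limma adjusted p = 0.00214), and Ier5l was not called (-0.16 ± 0.10). Of 19 other tested immediate early genes, 15 rose and none fell with LPS, where 17.0% of all genes rose (median 1.64, all genes -0.19), with the kinase Plk2 at 4.65, the phosphatase Dusp2 at 3.77 and the mRNA decay factor Zfp36 at 3.70. In antibody-treated cells 16 of 19 rose and none fell, where 15.4% of all genes rose (median 1.99, all genes -0.15). Plk2 was at 4.01 there, Dusp2 at 3.88 and the kinase Plk3 at 3.86. The combination against LPS changed 2 of the 19 in opposite directions, where 1.78% of all genes were called, Fos, an AP-1 subunit, at 1.25 ± 0.18 (limma adjusted p = 0.0255) and Plk2 at -0.83 ± 0.12 (limma adjusted p = 0.0252). Both calls were lost without any 1 of the untreated, LPS or combination libraries, with Fos at 1.03 to 1.47 and Plk2 at -0.92 to -0.73 over the 8 fits. Fos and Plk2 were both called in a fit on only the combination and LPS libraries, where 2384 of 9772 tested genes were. With anti-CD36 alone 1 of the 19 was called, Fosl2 at -0.71, where 13.7% of all genes were called.

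Of 17 tested genes that carry the signal from MAP kinases to SRF, LPS lowered 8 and raised 2, where 37.5% of all genes fell and 17.0% rose (median -0.33, all genes -0.19). These included the SRF coactivators Mrtfa (-1.54) and Mrtfb (-1.12) and the kinase Rps6ka1 (-1.41). In antibody-treated cells LPS lowered 7 and raised 1, where 31.7% of all genes fell and 15.4% rose. None was called in the combination against LPS, where Braf was at -0.57, Elk4 at -0.55 and Map3k8 at -0.43. With anti-CD36 alone 1 fell, Mrtfb at -0.70, where 10.6% of all genes did. In the interaction none of the genes in these lists passed.

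Among 6631 other tested genes with a mean FPKM of at least 5, those with the most similar pattern over the 8 libraries were found for each of the 5 members called with a log2 difference of at least 1 in some comparison. Similarity was the root mean square difference between centred log2(FPKM + 1) values. Klf2 was closest to Aunip (0.11) and Tubb4b (0.13), a tubulin. Tubb4b stood at 95.8 and 84.4 FPKM in the combination, 53.1 and 62.9 with LPS, 195 and 231 with anti-CD36 and 220 and 196 in untreated cells. Klf4 was closest to the kinase Tnk2 (0.04) and Kcnab2 (0.05), Myc to Fnbp1l (0.23) and the stress factor Ddit3 (0.25), and Ier3 to the iron transporter Slc11a2 (0.13) and the kinase Pim2 (0.14). For Klf10, Ttc7 was among the 2 closest genes (0.18). Klf2, Klf4 and Myc average below 5 FPKM, where this scale understates change, so a small distance need not mean an equal fold change. With LPS against untreated cells, Klf4 was 5.32-fold lower, Tnk2 2.75-fold and Kcnab2 2.4-fold. Myc was 47.1-fold higher, Fnbp1l 5.0-fold and Ddit3 6.2-fold.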

How the data were processed

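Gene expression was measured by RNA sequencing of RAW264.7 cells in 8 libraries, 2 in each of 4 groups set by the labels. The authors deposited 1 table of FPKM values. HISAT2 2.0.5 is named in the submitters' processing notes, with mm10 and hg38 as builds. For the counter, annotation and use of strand, the method is not given in the sources used here. Although the labels name 10x Genomics, each gene has 1 value in each library. No listed gene was at 0 in any library, so absent genes were not analysed here. Nearly all FPKM values of short RNAs (97.2% to 98.9% of them per library, within 0.05 of a read) were whole reads at the depths given, with GENCODE M21 exon lengths (GRCm38). A floor of 3 reads would cover counting error only, and the tests did not use it as a filter. Read numbers given for single genes use these lengths and are approximate.

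Log2(FPKM + 1) values were fitted with limma 3.58.1 in R 4.3.3, with 4 group means over all 8 libraries (4 residual and 3.46 prior degrees of freedom, trend on expression). The test was checked on simulated data. The 10 genes, the gene lists and the comparisons were chosen with earlier results of these data known. All 10 genes were named in each comparison. In other lists the named genes are all members where 5 or fewer were tested, and otherwise the 3 with the largest differences. The gene closest in pattern to Klf10 is not reported here. Alternatives were quantile normalization, size factors, a pseudocount of 0.1 or of 5, tests on unfiltered genes or on those averaging 5 FPKM or more, a replicate block, fits restricted to the groups compared, and leaving out each library. Added after seeing the data were leaving out mitochondrial genes, removing the length trend and leaving out both anti-CD36 libraries.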

Additional observations from a re-analysis of the deposited data

Results flagged for a closer look

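Egr3 stood out because its LPS difference pointed in opposite directions with and without the antibodies. Both combination libraries (0.687 and 0.793 FPKM) were below both anti-CD36 libraries (2.19 and 1.39), while both LPS libraries (2.10 and 2.51) were above both untreated ones (1.54 and 1.86). The difference between these LPS differences was -0.96 on the log2(FPKM + 1) scale and did not pass the test of the difference itself (limma adjusted p = 0.257, unadjusted p = 0.0026).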

How the results depend on the processing

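Each spread rests on 2 libraries per group, and the level of Myc without LPS rests on about 4 to 20 reads per library. Over up to 19 alternatives per gene and comparison, 792 of the values of single genes kept their direction and their side of the threshold, 46 lost a call, 19 gained one and 24 turned direction.

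For LPS against untreated cells, 3 genes were called at a mean FPKM of at least 5, where 5 were tested, and 7 to 8 with 1 library left out. In antibody-treated cells LPS gave 3 at a mean FPKM of at least 5 and 6 to 8 with 1 library left out. For the combination against LPS, 2 were called with a pseudocount of 0.1, 2 after quantile normalization, 2 with mitochondrial genes left out, 1 at a mean FPKM of at least 5 and 0 to 5 with 1 library left out. For anti-CD36 alone the counts were 2 with a pseudocount of 5, 0 with size factors, 0 in a fit restricted to the compared groups (where 8 were tested) and 0 to 2 with 1 library left out. For the interaction they were 0 to 2 with 1 library left out.

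With the replicate block 0 of 10 genes were called for the combination against LPS, and no other count of the 10 genes changed. Same-numbered replicates deviated together in some pairs of groups and apart in others (Pearson's r of -0.65 to 0.53 across genes). These correlations cannot show whether same-numbered libraries were handled together, and the labels do not say.

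Over all tested genes, a mean FPKM of at least 5 gave 3665 calls for LPS, 3098 for LPS in antibody-treated cells, 88 for the combination against LPS and 811 for anti-CD36, against 5614, 4844, 183 and 1405 as reported. Only the groups compared gave 3212, 2384 and 0 for the last 3, and the block gave 46 for the combination against LPS and 863 for anti-CD36. Mitochondrial genes left out gave 121 for the combination against LPS, and leaving out both anti-CD36 libraries gave 1453. The interaction had 1 call, 0 with a pseudocount of 0.1, 6 with 5 and 3 with the length trend removed. Leaving out 1 library gave 3583 to 7080, 3214 to 6374, 1 to 1450, 0 to 3726 and 1 to 616 for the 5 comparisons. Size factors moved the median of all genes with LPS by over 0.1, to 0.00 in place of -0.19, with 2655 called higher and 2726 lower in place of 1754 and 3860. In antibody-treated cells they gave 2371 higher and 2344 lower in place of 1580 and 3264. For anti-CD36 they gave 429 and 584 in place of 313 and 1092. Mitochondrial genes left out moved the split the other way, to 1210 higher and 4960 lower for LPS, 1073 and 4303 for LPS in antibody-treated cells and 138 and 1305 for anti-CD36.

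None of the values that turned direction was called, as reported or under the alternative, and those of Egr1 were as large as 0.459 in size. With mitochondrial genes left out these were Egr1 for LPS in antibody-treated cells (-0.005), Klf10 for the combination against LPS (-0.025) and Egr3 for anti-CD36 (-0.023). With the length trend removed they were Ier2 for LPS (-0.011), Klf10 for the combination against LPS (-0.001) and Klf2 for anti-CD36 (-0.092). The interaction of Ier2 was -0.002 with size factors and -0.047 after quantile normalization. With 1 library left out Egr1 ran from -0.169 to 1.03 for LPS, -0.312 to 0.683 for LPS in antibody-treated cells, -0.744 to 0.459 for the combination against LPS, -0.393 to 0.602 for anti-CD36 and -0.848 to 0.355 for the interaction. Ier2 ran from -0.075 to 0.554 for LPS and -0.271 to 0.358 for the interaction, Klf10 from -0.038 to 0.089 for the combination against LPS, and for anti-CD36 Egr3 from -0.172 to 0.242 and Ier3 from -0.22 to 0.009. The cause was not tested.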
